A study of Mus musculus with 22 samples.

Results

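The comparison was between the dentate gyri of Srf knockout (KO) and control (CTR) mice after kainic acid, taken from 10 arrays titled KO_KA or CTR_KA out of 22 arrays in all. KO mice were Srf f/f;CaMKCreERT2 and CTR mice were their Srf f/f littermates, and the adult males of both genotypes had received tamoxifen. The CaMKIIα promoter restricts the Cre recombinase to excitatory forebrain neurons, so glia, vessels and interneurons of a KO dentate gyrus keep an intact Srf. Kainic acid (KA), a glutamate receptor agonist, was injected intraperitoneally at 35 to 50 mg/kg, and mice with seizures of score 5 were killed 6 h later. There were 5 KO KA and 5 CTR KA arrays, and the levels after saline came from 6 KO saline and 6 CTR saline arrays. Each array held the RNA of 1 mouse, and the dose of the single mouse is not given in the sources used here. The comparison covered all 46237 probes, which represent 21960 named genes when each gene is read on its brightest probe.

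Serum response factor (SRF) binds the CArG box, a short A/T-rich element. With ternary complex factors it drives immediate-early genes after calcium entry and MAP kinase signalling, and with myocardin-related factors it drives genes of the actin cytoskeleton. The immediate-early proteins Fos, Junb, the Egr factors and Npas4 are transcription factors themselves and act on later genes such as those of secreted peptides and synaptic proteins. Granule cells, the principal neurons of the dentate gyrus, express these genes strongly after seizures.

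Promoter sequences are shown to let the reader see the SRF element close to the transcription start. The CArG genes were picked from the 22 called genes that hold an exact box, and the other 3 from early factors among the 15 largest negative differences. They come from the RefSeq windows (GRCm38.p6) that run from 250 bases before to 50 bases after a gene's start, and a letter string in them is a description, not a binding site. In the first set, exact CArG boxes, searched in a form that reads alike on both strands, are in capitals.
Srf, chr17:46556190-46556269, minus strand: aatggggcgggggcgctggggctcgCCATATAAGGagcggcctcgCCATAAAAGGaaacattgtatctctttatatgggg
Rnd3, chr2:51149177-51149236, minus strand: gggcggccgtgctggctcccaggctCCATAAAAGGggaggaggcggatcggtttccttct
Egr2, chr10:67537469-67537528, plus strand: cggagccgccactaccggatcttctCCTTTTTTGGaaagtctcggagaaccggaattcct
Zfp36, chr7:28379252-28379311, minus strand: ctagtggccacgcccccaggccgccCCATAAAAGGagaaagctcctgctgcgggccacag
Acta1, chr8:123894814-123894873, minus strand: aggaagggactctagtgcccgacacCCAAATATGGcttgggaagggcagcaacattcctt
Of these genes, Srf, Rnd3, Egr2 and Zfp36 were lower in KO KA mice and Acta1 was higher. The box began 100 bases before the start in Rnd3, 72 in Egr2, 58 in Zfp36 and 73 in Acta1, and Srf itself held boxes at 82 and 62 bases. An exact CArG box was present in the window of 15 of 592 lower genes (2.53%), of 7 of 422 higher genes (1.66%) and of 255 of all 15461 tested genes with a window (1.65%). In the second set, capitals mark the core of the cyclic AMP response element (CRE), the letters TGACG or, on the other strand, CGTCA, in the genes of 3 activity-regulated factors.
Npas4, chr19:4990116-4990170, minus strand: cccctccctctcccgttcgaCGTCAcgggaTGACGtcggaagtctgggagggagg
Fos, chr12:85473741-85473848, plus strand: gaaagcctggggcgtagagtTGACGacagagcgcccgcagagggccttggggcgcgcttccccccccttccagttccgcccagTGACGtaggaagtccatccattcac
Egr4, chr6:85513674-85513786, minus strand: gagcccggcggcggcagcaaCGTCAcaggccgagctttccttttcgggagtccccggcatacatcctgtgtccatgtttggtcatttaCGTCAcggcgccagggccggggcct
This core was found in 260 of 592 lower genes (43.92%), in 118 of 422 higher genes (27.96%) and in 4316 of 15461 tested genes (27.92%). The full CRE was found in 4.39% of lower, 1.9% of higher and 2.72% of tested genes. For the site of AP-1, the factor of Fos and Jun proteins, the shares were 5.91%, 3.79% and 5.39%. The study reports CArG boxes with SRF binding further upstream of Fos and Npas4, outside these windows.

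The deposited signals are on a log2 scale and ran between 6.69 and 16.12 over the arrays, with a median of 7.88. Because the median lies close to the lowest signal, the fold change of a dim probe is understated, and a probe near the upper end has little room to differ. Group means of each probe were fitted with limma over all 22 arrays, and a probe was called at an adjusted p under 0.05 (Benjamini-Hochberg over all probes) with more than a 1.5-fold difference. The groups shared a single estimate of the spread. A standard error therefore reflected how many mice were in a group, not the group's own spread. Array weights were lower in the CTR KA arrays (0.36 to 0.816) than in most saline arrays (up to 1.822). In each difference KO minus CTR, a negative value means a lower signal in KO mice. CTR KA replicate 5, CTR KA replicate 4 and KO KA replicate 5 had the lowest array weights (0.36, 0.417 and 0.456), and the mean level of choroid plexus markers was high in KO KA replicate 4 (11.08) and CTR KA replicate 2 (10.69). KO KA replicate 3 stood nearer to CTR KA mice than the other KO KA arrays in several of the genes below, although its Srf signal was the lowest of the group.

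The transcript of the targeted gene was lower in KO mice. Srf (probe ILMN_2988299) had log2 signals of 11.32, 11.10, 10.95, 11.42 and 11.37 in KO KA mice and 11.73, 12.22, 12.11, 12.20 and 12.05 in CTR KA mice. The groups did not overlap, and the difference was −0.83 (standard error 0.11, adjusted p = 1.1e-05, 1.78-fold). After saline the means were 11.41 in KO mice and 12.45 in CTR mice, a difference of −1.04. The remaining signal comes from a tissue in which only excitatory neurons carry the Cre recombinase, and in such bulk samples fewer cells with a transcript and less of it per cell cannot be told apart. The sources used here do not say whether the probe lies within the deleted part, in which case it would check the deletion. A dim second probe (ILMN_1242533) was at 7.55 in KO KA mice and 8.10 in CTR KA mice. Its limma difference of −0.55 (adjusted p = 0.017) missed the call only by the fold threshold. Of 6 measured cofactors of SRF 0 were called with limma, 0 with Tukey's test and 0 at an unadjusted p under 0.05, and Mrtfa and Elk3 differed by −0.30 and −0.11.

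After KA the genotypes differed in many genes, and more were lower than higher in KO mice. With limma 1435 of 46237 probes were lower (3.1%) and 774 were higher (1.67%). Read on the brightest probe, 820 of 21960 genes were lower (3.73%) and 576 higher (2.62%), so that 1396 (6.36%) were called in either direction. The median difference over all genes was −0.001, against −0.83 among the lower and 0.77 among the higher genes. A difference of more than 2-fold was found for 271 lower and 128 higher genes, and one of more than 4-fold for 27 lower and 6 higher genes. The 5 KO KA arrays lay wholly below the 5 CTR KA arrays in 751 genes (3.42%) and wholly above them in 616 (2.81%). Of the called genes, 516 lower and 318 higher ones showed this lack of overlap. The gene lists below were chosen with earlier results of these data known, so a high share of called members is not independent support. Counts in these lists are to be read beside the 3.73% lower and 2.62% higher genes. After saline 1 gene of 21960, Srf, was called (0.00455%). An unadjusted limma p under 0.05 was found for 477 genes, less than the share of 0.05 expected if no gene differed. The spread was shared over all 22 arrays, and most saline arrays had higher weights than the CTR KA arrays. The saline test may thus be too strict, and the low count does not show that the genotypes were alike. A fit of the saline arrays alone was not run. The study also reports Arsi and Sstr1 as higher in KO mice after saline.

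**Figure D1:**
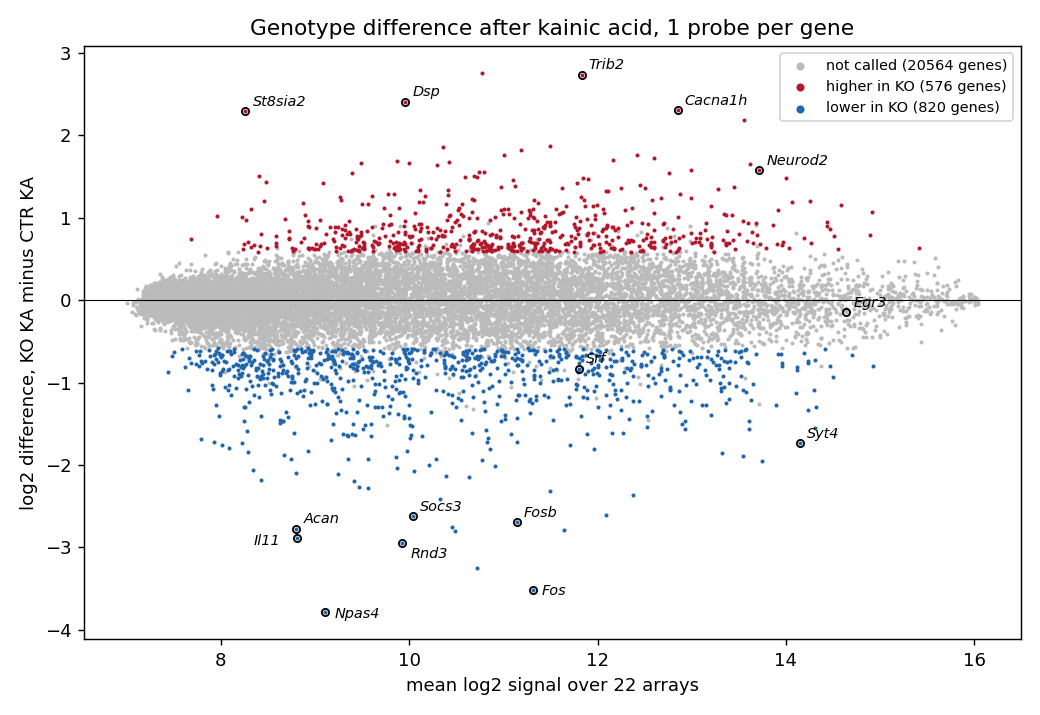
Genotype difference after KA (KO KA minus CTR KA, log2, vertical axis) against the mean log2 signal over 22 arrays (horizontal axis), with 1 point for each gene on its brightest probe. The 820 lower genes reach to −3.79 for Npas4, the 576 higher genes to 2.76, and Egr3 lies near 0 at a high signal.

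Among the genes that were lower in KO KA mice, Npas4, a transcription factor of active neurons, had the largest difference. Its log2 signals were 8.50, 8.13, 8.61, 8.22 and 8.34 in KO KA mice and 13.99, 10.52, 12.15, 11.55 and 12.53 in CTR KA mice (KO minus CTR −3.79, standard error 0.36, adjusted p = 2.6e-07, 13.8-fold). The KO KA arrays were tightly grouped close to the saline means, 8.09 in KO and 8.23 in CTR mice, while the CTR KA arrays spread widely. Fos, which forms the AP-1 factor with Jun proteins, had 11.51, 11.48, 12.78, 11.19 and 11.97 in KO KA mice and 15.06, 14.90, 15.43, 15.91 and 15.21 in CTR KA mice (difference −3.52, standard error 0.29, adjusted p = 4.3e-08, 11.4-fold). Unlike Npas4, Fos in every KO KA mouse stood well above its saline means of 9.42 in KO and 9.47 in CTR mice. Rnd3, whose promoter box is shown above, had 9.24, 9.47, 10.33, 9.44 and 9.63 in KO KA mice and 12.73, 12.26, 12.89, 12.43 and 12.54 in CTR KA mice (difference −2.95, standard error 0.17, adjusted p = 1.4e-10, 7.72-fold). All 3 genes left a wide gap between the genotypes.

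Il11, a cytokine that signals through gp130, had 8.05, 8.30, 10.06, 8.17 and 8.05 in KO KA mice and 11.18, 12.21, 12.63, 10.70 and 10.33 in CTR KA mice (difference −2.88, adjusted p = 8.3e-06). Socs3, the feedback inhibitor of that receptor, had 9.94, 9.96, 11.92, 10.32 and 10.13 in KO KA mice and 12.50, 13.39, 13.60, 13.42 and 12.47 in CTR KA mice (difference −2.62, adjusted p = 2.5e-06). In both genes KO KA replicate 3 was the array nearest to the CTR KA mice, and no array crossed into the other group. Acan encodes aggrecan, the core proteoglycan of perineuronal nets, and had 8.78, 8.29, 8.92, 8.16 and 8.33 in KO KA mice and 10.72, 10.97, 12.44, 11.66 and 10.56 in CTR KA mice (difference −2.77, adjusted p = 5.6e-08). Cd14, the lipopolysaccharide co-receptor of myeloid cells, had 9.04, 9.07, 9.91, 9.43 and 9.39 in KO KA mice and 11.48, 11.31, 11.77, 11.82 and 11.77 in CTR KA mice (difference −2.26, standard error 0.13, adjusted p = 2.5e-10). Cd14 separated the genotypes by a wide gap, with SDs of 0.35 in KO KA mice and 0.23 in CTR KA mice.

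The rest of the 15 genes with the largest negative differences among called genes without overlap were Sp7 (−2.81), a zinc finger factor best known from bone, Ybx3 (−2.78), a cold shock domain protein that binds nucleic acids, Fosb (−2.69), Tmem114 (−2.60), a membrane protein, Lcn2 (−2.41), a siderophore-binding lipocalin, Egr4 (−2.37), Junb (−2.31) and Ccl4 (−2.28), a chemokine. Among these 8, Egr4 had the smallest spread in KO KA mice, with 12.10 ± 0.15 against 14.47 ± 0.47 in CTR KA mice (SD, n = 5 each), and its saline means were 11.56 in KO and 11.68 in CTR mice. Dimmer probes of Npas4 (ILMN_2596527, 7.70 in KO KA and 7.64 in CTR KA mice) and Junb (ILMN_1254833, 7.93 and 7.81) lay near the low end and were not called. Other probes of Ybx3 had smaller differences: ILMN_2705078 (−0.82) and ILMN_1234336 (−0.68) were called lower, and ILMN_2629657 (−0.20) was not called. Stc1, noticed only after its values were seen, had a larger difference (−3.25) than Rnd3, and the chaperone Hspa1a (−2.75) a larger one than Fosb, but their groups overlapped.

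**Figure D2:**
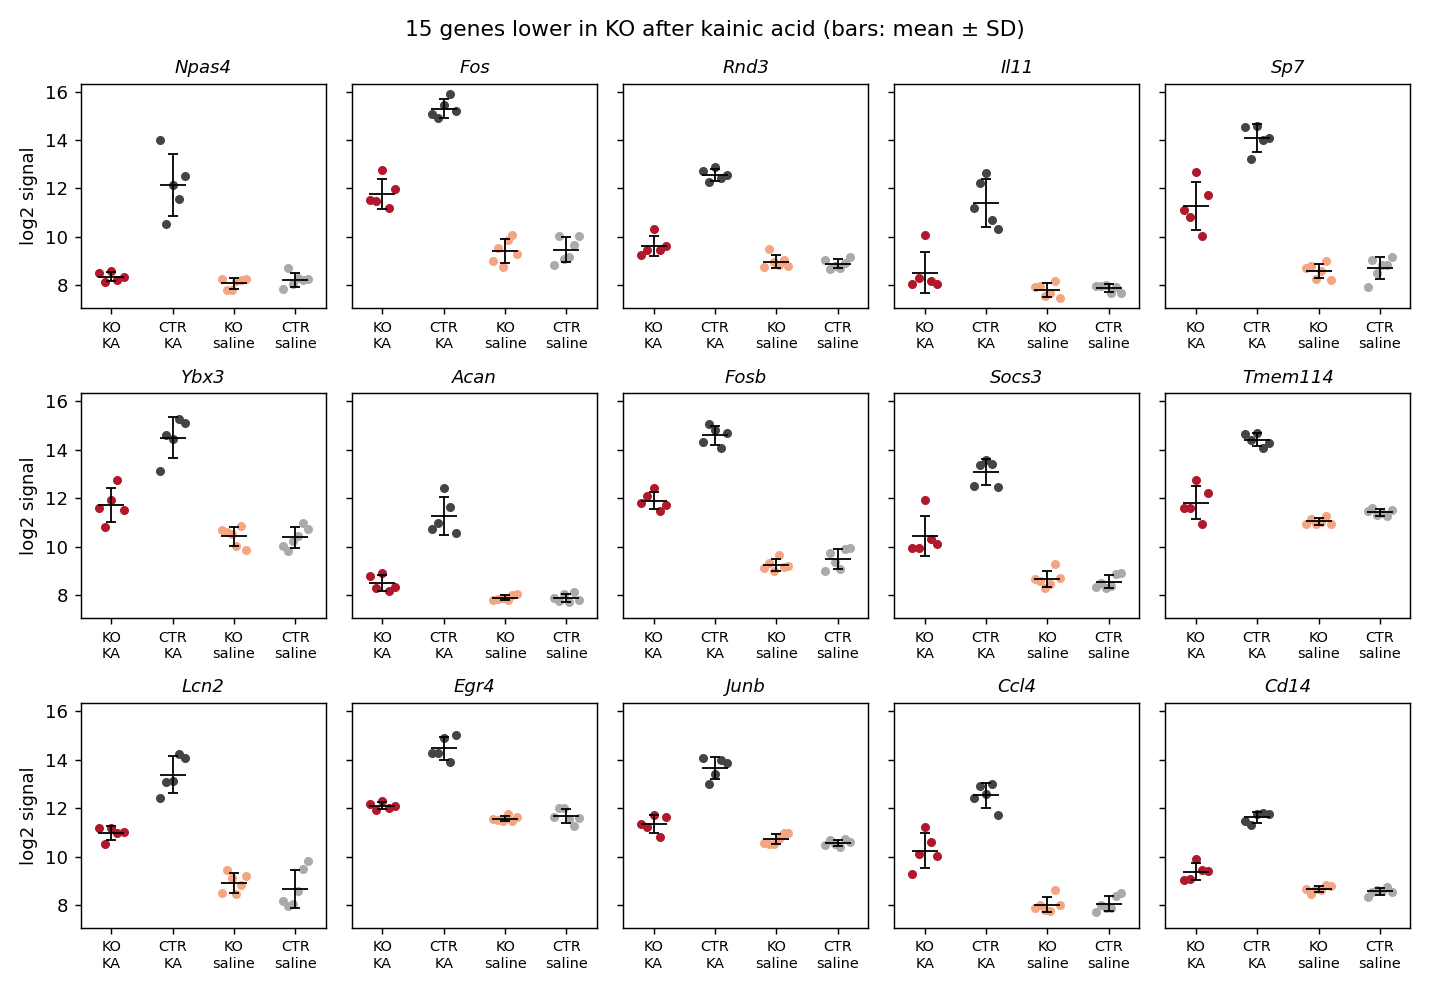
Log2 signal (vertical axis) of the 15 genes with the largest negative difference among called genes without overlap, with 1 point for each array and groups ordered KO KA, CTR KA, KO saline and CTR saline. Bars give the mean ± SD, and in each gene all 5 KO KA points lie below all 5 CTR KA points.

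Most AP-1 subunits were lower in KO KA mice, Egr3 was not called and Batf3 was higher. Of 12 AP-1 subunits and partners with a probe, 7 were lower and 1 higher (median difference −0.82). Atf3, a stress-induced partner, had 10.19 ± 0.62 in KO KA and 12.38 ± 0.65 in CTR KA mice (SD, n = 5 each, difference −2.19, adjusted p = 3.5e-06). Batf3, which competes with Fos for Jun, differed by 0.97 (adjusted p = 0.016) in the other direction, a call that was lost without KO KA replicate 2 (0.87, adjusted p = 0.055). Fosl2 (−0.45) and Jdp2 (−0.47) were not called. Of 6 Egr factors and Nab corepressors 3 were lower (median −0.82), namely Egr4, Egr2 (−2.11, adjusted p = 6.9e-09) and Egr1 (−1.33, adjusted p = 7.5e-09). Egr1 had 14.66, 14.28, 14.56, 14.28 and 14.30 in KO KA mice and 15.70, 15.71, 15.86, 15.88 and 15.59 in CTR KA mice, a narrow spread at a bright probe. Egr3, the remaining bright family member, had 15.42, 15.25, 15.18, 15.04 and 15.83 in KO KA mice and 15.88, 15.42, 14.80, 15.32 and 16.01 in CTR KA mice (−0.14, standard error 0.18, adjusted p = 0.77). The Egr3 groups overlapped, and the signal was close to the upper end of the range.

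Other early transcription factors were lower in part. Among the 3 Nr4a orphan nuclear receptors, Nr4a2 had 9.86 ± 0.39 in KO KA and 11.86 ± 0.68 in CTR KA mice (SD, n = 5 each), and was lower (adjusted p = 2.1e-06), as was Nr4a3 (−0.91, adjusted p = 5.1e-05). The KO KA mean of Nr4a2 was close to its saline means of 9.80 in KO and 9.52 in CTR mice. Nr4a1 was read on a dim probe (7.33 in KO KA and 7.48 in CTR KA mice). Of 13 Krüppel-like, C/EBP and Crem factors, 4 were lower and none higher (median −0.29), with −1.20 for Klf6 and −1.11 for Klf4, while Klf9 (−0.04) and Cebpb (−0.02) had nearly equal means. Of 11 bHLH factors only Npas4 was lower and Hes1, a Notch target, was higher (0.69). Without CTR KA replicate 3 the Hes1 difference was 0.55 and under the fold threshold. Bhlhe40 (−0.46) and Id2 (−0.36) were not called.

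Part of the feedback regulators of MAP kinase signalling were lower in KO KA mice. Among 9 dual-specificity phosphatases, which switch MAP kinases off, 4 were lower and none higher (median −0.44). Dusp1 had 12, 11.81, 11.95, 12.29 and 11.96 in KO KA mice and 14.22, 13.35, 13.90, 13.64 and 13.92 in CTR KA mice (−1.81, standard error 0.15, adjusted p = 4.2e-08), and Dusp16, Dusp4 and Dusp6 differed by −1.37, −1.30 and −0.91. Dusp7 (0.57, adjusted p = 0.013) lay on the other side of 0 but below the fold threshold. Of 10 Sprouty, Spred and receptor feedback genes 4 were lower (median −0.24), led by Errfi1, an inhibitor of the EGF receptor (−1.86, adjusted p = 1.4e-08), and Hbegf, a ligand of that receptor (−1.19). Of 15 kinases of the cascade 7 were lower and none higher (median −0.56). Map3k5, the stress kinase ASK, had 7.75, 7.75, 7.91, 7.77 and 8.02 in KO KA mice and 10.34, 9.84, 10.16, 8.57 and 10.57 in CTR KA mice (−2.06, adjusted p = 1.8e-06). Its KO KA arrays sat at the low end of the range, as did the saline means of 7.89 in KO and 7.91 in CTR mice. Mapkapk3 (−1.51), Rps6ka3 (−1.33) and Map2k3 (−1.22) were also lower, and Map2k2 (0.40) and Map2k4 (−0.56) were below the fold threshold.

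Growth arrest and RNA decay genes were lower or not called. Of 10 growth arrest and DNA damage genes 5 were lower and none higher (median −0.81). Cdkn1a, an inhibitor of cyclin-dependent kinases, had 11.36, 12.06, 12.44, 11.62 and 12.24 in KO KA mice and 14.10, 13.33, 13.98, 13.73 and 14.62 in CTR KA mice (−2.01, adjusted p = 5.1e-06). The signal of Gadd45g, a stress sensor, was 13.70 ± 0.37 in KO KA and 15.59 ± 0.21 in CTR KA mice (SD, n = 5 each, −1.89, adjusted p = 1.6e-08), and Gadd45b and Plk2 differed by −1.40 and −1.05. Both Cdkn1a and Gadd45g separated the genotypes in every array. Of 6 RNA decay factors, Zfp36, which binds AU-rich elements, differed by −2.07 (adjusted p = 2.8e-07) and Zfp36l1 by −1.25, while Zc3h12a (−0.20) and Pnrc2 (0.05) were not called. Of 14 small early proteins 6 were lower and 2 higher (median −0.37). Csrnp1 (−1.75), Ier3 (−1.46) and the kinase Sik1 (−1.30) were on the lower side and Trib2 and Ier5l on the higher side, the Ier5l call (0.84) being lost without KO KA replicate 2 (0.76, adjusted p = 0.054).

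Most of the listed plasticity genes, and smaller shares of the listed genes of secreted neuronal signals, were lower in KO KA mice. Of 17 plasticity effectors 10 were lower and 1 higher (median −0.76), beside 3.73% lower over all genes. The list holds Syt4, Lcn2, Pcdh8 and Vgf, which the study had named from the same arrays. Syt4, a vesicle protein of the synaptotagmin family, had 14, 14.16, 14.26, 13.71 and 13.63 in KO KA mice and 15.17, 15.82, 16.00, 16.07 and 15.40 in CTR KA mice (−1.74, adjusted p = 3.3e-08). Its KO KA mean of 13.95 lay near the saline means of 13.62 in KO and 13.57 in CTR mice. Arc, which regulates AMPA receptor uptake, differed by −1.53 (adjusted p = 4.7e-06) and still reached 14.16 ± 0.42 in KO KA mice, against 15.69 ± 0.22 in CTR KA mice (SD, n = 5 each), with saline means of 10.35 in KO and 10.73 in CTR mice. Ptgs2, the inducible cyclooxygenase (−1.61), Vgf, a neuronal peptide precursor (−1.27), and Pcdh8, a protocadherin of synapses (−1.17), were lower. Nrn1 (−0.04) and Homer1 (0.02) had nearly equal means, and Rasgrp1, a Ras activator, was higher (0.79, adjusted p = 0.0028). Of 6 neurotrophins and receptors, Bdnf (−1.09, adjusted p = 6.8e-05) and its receptor Ntrk2 (−1.06, adjusted p = 8.6e-07) were lower together, and Ntrk3 (−0.12) and Sort1 (0.15) were not called.

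The neuropeptides went in both directions. Of 21 precursors and granins 8 were lower and 2 higher (median −0.20). Adcyap1, the precursor of PACAP, had 9.49 in KO KA and 10.91 in CTR KA mice as means (−1.42, adjusted p = 3.7e-06), and Pdyn, the dynorphin precursor of granule cells, differed by −1.28. Npy had 15.64, 15.41, 15.64, 14.89 and 15.72 in KO KA mice and 14.52, 14.61, 14.50, 15.03 and 14.10 in CTR KA mice (0.91, standard error 0.15, adjusted p = 0.00024). Here the KO KA mice were higher, with 1 overlapping array on each side, and the saline means were 12.94 in KO and 12.88 in CTR mice. Gal, the galanin precursor, also differed upward (1.17, adjusted p = 0.014), a call lost without KO KA replicate 2 (1.03, adjusted p = 0.051). Of 20 neuropeptide receptors, Cckbr (−1.15) and Npy1r (−0.72) were lower, and Sstr2 (−0.07) was not called. In the activin group of 15 genes, the ligand subunit Inhba was lower (−1.61, adjusted p = 9.2e-05), whereas the receptors Acvr1c (1.39, adjusted p = 0.00013) and Acvr2b (0.73) were higher. Of 25 insulin-like, FGF, VEGF and other growth factor genes 6 were lower and none higher (median −0.36). Among them Gdnf, a survival factor, had 8.04, 7.92, 9.68, 7.89 and 8.34 in KO KA mice and 9.64, 10.45, 11.46, 11.06 and 10.20 in CTR KA mice (−2.19, adjusted p = 1.5e-05), with KO KA replicate 3 inside the CTR KA range. Igfbp3 (−1.35), Nrg1 (−1.06) and Vegfa (−0.80) were lower as well.

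Part of the cytokine and inflammatory genes were lower in KO KA mice. Of 14 chemokines 7 were lower and 1 higher (median −0.58), with −2.28 for Ccl4, −2.10 for Ccl3, −1.40 for Cxcl1 and −1.24 for Ccl7. Cxcl12, which granule cell precursors follow, was higher (0.78, adjusted p = 0.007), while Cx3cl1 (−0.09) and Cxcl14 (−0.02) had nearly equal means. Of 15 interleukin 6 family and Socs genes 7 were lower and none higher (median −0.59), Il11 and Socs3 ahead of Osmr (−0.97) and Lif (−0.75), and Il6st, which encodes gp130, was not called (−0.17). All 21 genes of the NF-κB, TNF and interleukin 1 group had a negative difference (median −0.34), but only 4 were called, among them the inhibitors Nfkbiz (−1.21, adjusted p = 4.3e-07) and Nfkbia (−1.10) and the receptor Tnfrsf1a (−1.02). The transcription factor subunit Rela (−0.34, adjusted p = 0.052) was not called. Of 18 reactive astrocyte genes 6 were lower and none higher (median −0.54), with −2.41 for Lcn2, which the plasticity list also holds, −2.14 for Emp1, −1.51 for Timp1 and −1.50 for Ptx3. The established reactive markers Gfap (14.45 in KO KA and 14.62 in CTR KA mice, −0.18) and Serpina3n (14.87 and 14.80, 0.07) were not called.

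Actin and matrix genes went in both directions. Of 27 actin cytoskeleton genes known as SRF targets 4 were lower and 1 higher (median −0.37). The tropomyosins Tpm4 (−1.33) and Tpm3 (−1.15) and the focal adhesion protein Zyx (−1.21) were lower, and Actb (−0.51, adjusted p = 0.0019) and Wdr1 (−0.52) passed the adjusted p but not the fold threshold. Acta1, skeletal muscle actin, had 11.10, 11.07, 10.36, 11.13 and 11.03 in KO KA mice and 9.31, 9.09, 9.41, 8.97 and 9.70 in CTR KA mice (1.65, standard error 0.14, adjusted p = 5.3e-08). Its groups did not overlap, in the direction opposite to the tropomyosins, and the saline means were 10.48 in KO and 10.44 in CTR mice. Of 12 CCN and pericellular matrix genes 4 were lower and 1 higher (median −0.53). Ccn1, a matricellular protein, had 8.78 ± 0.51 in KO KA and 10.71 ± 0.40 in CTR KA mice (SD, n = 5 each, −1.93, adjusted p = 3.7e-07), and Ccn4, a relative, was higher (1.42, adjusted p = 5.6e-05). Ccn2 differed by −1.46 but its CTR KA arrays ran between 13.22 and 15.71 and it was not called (adjusted p = 0.14). Of 11 perineuronal net and hyaluronan genes 2 were lower (median −0.07), Acan and Bcan (−0.72), the Bcan value being −0.58 and under the fold threshold without CTR KA replicate 4, and Ncan (−0.18) and Hapln4 (0.19) were not called.

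Stress and metabolic genes were lower in small numbers. Among 17 cytosolic chaperones 6 were lower and none higher (median −0.30). Hspa1a, the inducible heat shock protein, had 9.68, 9.80, 10.96, 10 and 9.60 in KO KA mice and 10.35, 14.14, 13.23, 14.01 and 12.08 in CTR KA mice (−2.75, standard error 0.46, adjusted p = 0.00022). The CTR KA arrays scattered over a wide range, and their lowest array lay below KO KA replicate 3. Bag3, a co-chaperone (−1.40), and Dnajb1 (−1.47) separated the genotypes fully, whereas the bright chaperones Hspa8 (−0.05) and Hsph1 (−0.04) had nearly equal means. Of 19 endoplasmic reticulum genes 3 were lower (median −0.49), led by Sdf2l1 (−1.84, adjusted p = 7.7e-07), of 15 oxidative stress genes 2, Srxn1 (−1.27) and Hmox1 (−1.23), and of 13 Atf4 stress genes 3, with Sesn2 at −1.01. Of 15 sterol genes 6 were lower and none higher (median −0.27). Sqle, a squalene epoxidase, had 12.36, 12.13, 12.40, 12.36 and 12.12 in KO KA mice and 13.58, 13.57, 13.80, 13.72 and 13.75 in CTR KA mice (−1.41, standard error 0.09, adjusted p = 2.4e-09). The spread within each group was small, with SDs of 0.14 in KO KA and 0.10 in CTR KA mice, and Msmo1 (−1.11), Srebf2 (−0.90) and Cyp51 (−0.81) followed in the same direction. Of 16 clock genes 5 were lower, with −1.28 for Per1 and −0.92 for Per2, and the clock output Dbp (0.11) was not called. Of 23 RGS and Ras-like regulators 6 were lower and none higher (median −0.15), with −1.88 for Rrad, −1.57 for Rasl11a and −1.51 for Rgs16.

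Genes that were higher in KO KA mice were led by Marchf4 and Trib2. Marchf4, a membrane-bound ubiquitin ligase, had 12.49, 12.57, 12.09, 12.35 and 12.37 in KO KA mice and 9.69, 9.84, 9.65, 8.92 and 9.98 in CTR KA mice (2.76, standard error 0.15, adjusted p = 1.4e-10, 6.76-fold). Trib2, a pseudokinase that directs proteins to degradation, had 13.77, 13.91, 13.16, 13.79 and 13.83 in KO KA mice and 10.87, 11.04, 10.30, 10.26 and 12.31 in CTR KA mice (2.74, adjusted p = 1.4e-07). The saline means lay between these groups for both, at 10.58 in KO and 10.57 in CTR mice for Marchf4 and at 11.33 and 11.52 for Trib2. St8sia2, which adds polysialic acid to the adhesion molecule NCAM, had 9.96, 10.31, 9.23, 9.74 and 10.60 in KO KA mice and 7.54, 8.06, 7.23, 7.62 and 7.92 in CTR KA mice (2.30, adjusted p = 5.6e-08). In St8sia2 it was the KO KA mice that stood away from the saline means of 7.86 in KO and 7.71 in CTR mice, and the CTR KA level was near the low end of the range. Fam210b, a mitochondrial protein, had 12.64 ± 0.21 in KO KA and 10.89 ± 0.52 in CTR KA mice (SD, n = 5 each), against saline means of 10.36 in KO and 10.39 in CTR mice.

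Other genes were higher in KO KA mice at a level close to that after saline. Dsp, desmoplakin, a marker of granule cells in this tissue, had 10.55, 10.59, 9.80, 10 and 10.65 in KO KA mice and 8.42, 7.85, 7.61, 7.58 and 8.08 in CTR KA mice (2.41, standard error 0.18, adjusted p = 8.7e-09). Its saline means were 10.40 in KO and 10.94 in CTR mice, so the CTR KA arrays were the ones that stood apart. Cacna1h, a T-type calcium channel, had 13.47, 13.54, 13.17, 13.07 and 13.82 in KO KA mice and 11.70, 11.18, 10.60, 10.06 and 12 in CTR KA mice (2.31, adjusted p = 8.9e-07), with saline means of 13.20 in KO and 13.48 in CTR mice. Bcl11b, a zinc finger factor of granule and other projection neurons, had 13.97, 13.82, 13.29, 13.81 and 14.10 in KO KA mice and 11.75, 12.12, 11.10, 10.96 and 12.09 in CTR KA mice (2.19, adjusted p = 6.4e-08), and saline means of 14.21 in KO and 14.32 in CTR mice. In all 3 genes the CTR KA arrays were the low group of the 4. Further probes of Bcl11b were called in the same direction (ILMN_2436183, 2.68, and ILMN_1223119, 1.60), while dim probes of Dsp (0.04 and 0.18) and Cacna1h (−0.17 and 0.13) were not called. The rest of the 15 largest positive differences among called genes without overlap were Gse1 (1.88), Napepld, which forms N-acylethanolamines (1.83), Slc7a4, of the cationic amino acid transporter family (1.77), Mas1, a G protein-coupled receptor (1.70), Slc27a3, an acyl-CoA synthetase (1.69), Galnt18, of the family that starts mucin-type O-glycans (1.68), Creg2, a secreted glycoprotein (1.67), and Rhbdl3, a rhomboid-like protein (1.67). Dim probes of Gse1 (0.06, 0.50 and 0.24), Slc7a4 (0.29) and Trib2 (0.13) were not called. Of these, the Gse1 probes at 0.50 (limma, adjusted p = 0.0014) and 0.24 (adjusted p = 0.045) missed only the fold threshold.

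**Figure D3:**
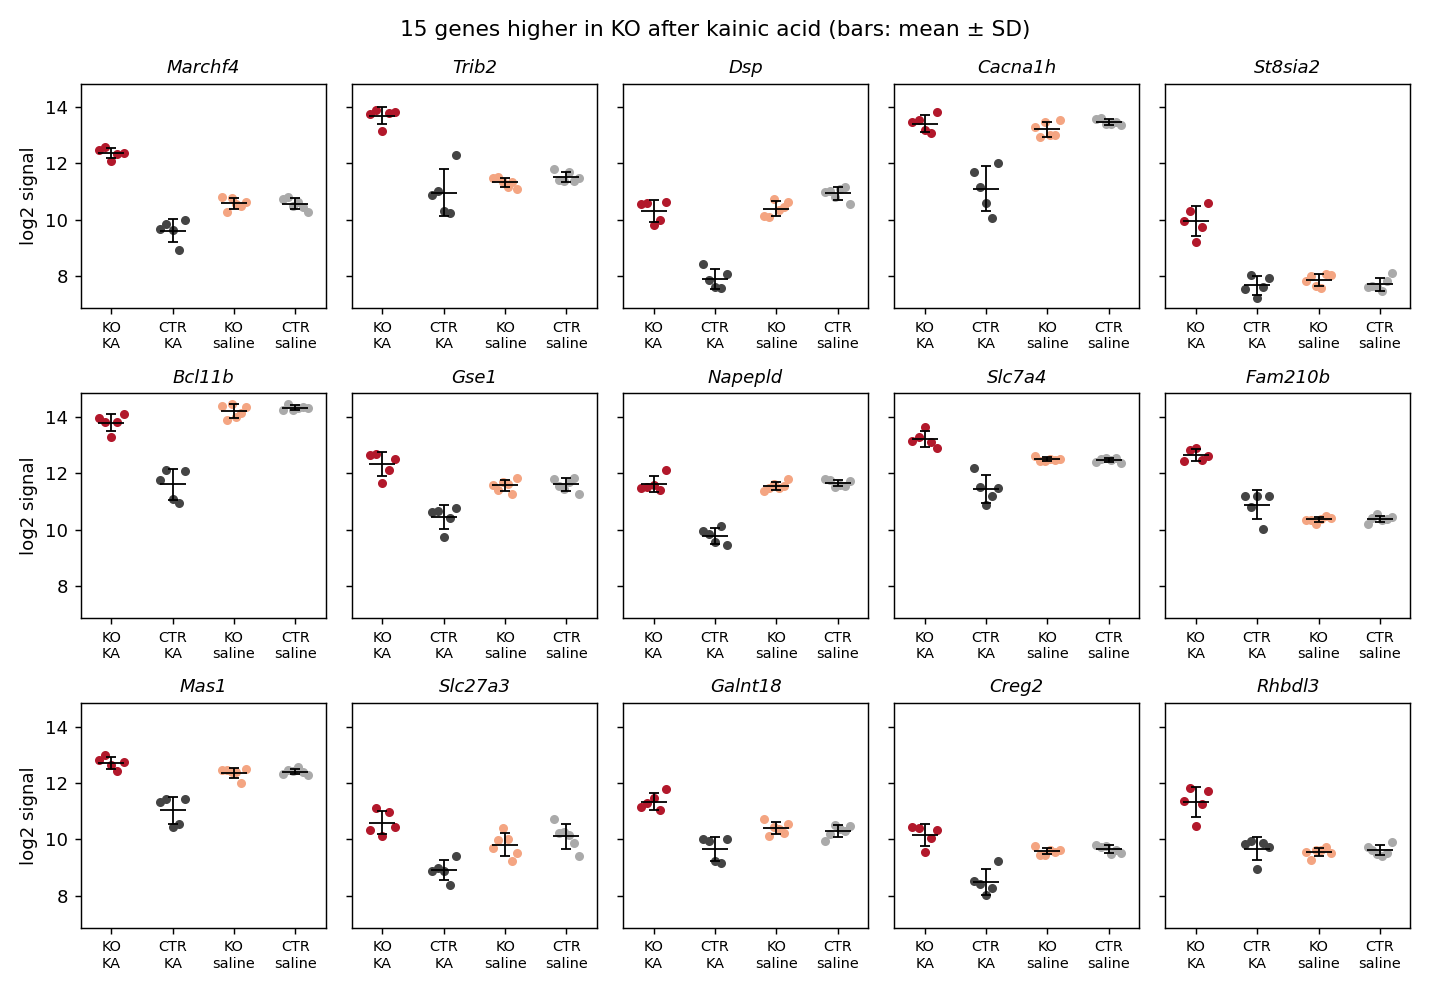
Log2 signal (vertical axis) of the 15 genes with the largest positive difference among called genes without overlap, with 1 point for each array and groups ordered KO KA, CTR KA, KO saline and CTR saline. Bars give the mean ± SD. KO KA points lie above CTR KA points in every gene, near the saline level in Dsp, Cacna1h and Bcl11b and above it in Fam210b, St8sia2 and Trib2.

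Ion channel and transmitter receptor lists differed in their share of calls, and most of these calls were on the higher side. The share lay above the 6.36% over all genes in the metabotropic, the AMPA and kainate, and the calcium, sodium and HCN lists. It lay below 6.36% in the potassium channel, NMDA and GABA-A lists. Of 8 metabotropic glutamate receptor and Homer genes 2 were higher and none lower (median 0.29). Grm2, a presynaptic receptor of mossy fibres, had 8.99, 8.71, 8.78, 8.58 and 9.22 in KO KA mice and 7.96, 7.77, 7.82, 7.80 and 7.87 in CTR KA mice (1.01, adjusted p = 2.6e-07), without overlap and at a low signal, and the Grm7 call (1.03) was lost without CTR KA replicate 3 (0.82, adjusted p = 0.05) or KO KA replicate 2 (0.90, adjusted p = 0.056). Of 9 AMPA and kainate subunits only Grik4 was called (1.06, adjusted p = 0.00057), while Gria1 (0.17) and Gria2 (−0.06) were not. Of 6 NMDA and 8 GABA-A receptor subunits 0 were called with limma or Tukey's test, with 0 and 1 at an unadjusted p under 0.05, and Grin2b (0.21) and Gabrd (−0.11) stood near 0. Among 22 calcium, sodium and HCN channel genes 3 were higher and 2 lower (median 0.01). The call of Cacna1c (−1.03, adjusted p = 0.031), one of the lower genes, was lost in 6 of the 10 fits without 1 KA array, with a difference of −0.66 (adjusted p = 0.073) without CTR KA replicate 1. Beside Cacna1h, the auxiliary subunit Cacng3 was lower, with 10.48 in KO KA and 12.15 in CTR KA mice as means (−1.68, adjusted p = 9.7e-06). Of 38 potassium channel genes 2 were higher, Kcns2 (1.19) and Kcnip3 (1.14), and none was lower (median −0.03), a share of 5.3% beside 6.36% over all genes. Of 21 genes of cyclic AMP receptors, cyclases and phosphodiesterases 5 were higher and 4 lower (median 0.05), with Rapgefl1 at 1.48 and Gpr3, a receptor that raises cyclic AMP on its own, at −1.69. In the calcineurin and calmodulin kinase list of 23 genes, Dclk3, a doublecortin-like kinase, was higher (1.49) and Rcan1, an inhibitor of calcineurin, lower (−1.06). These were 8.7% of that list, beside 6.36% over all genes. Neurod2, a factor of neuronal differentiation listed with the immature neuron genes, was higher (14.69 ± 0.30 in KO KA and 13.11 ± 0.83 in CTR KA mice, SD, n = 5 each, adjusted p = 0.00016).

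Adhesion, guidance and apoptosis lists held a few calls each. Of 22 synaptotagmin and vesicle release genes 2 were higher and 1 lower (median 0.07), Syt13 at 1.05 opposite to Syt4. Of 25 cadherins and protocadherins 3 were lower and none higher (median −0.26), with −1.05 for Pcdh10 and −0.97 for Cdh5, the endothelial cadherin. Of 46 axon guidance genes 3 were higher and 1 lower (median 0.05), a share of 8.7% beside 6.36% over all genes, with the ephrin Efna1 at 0.74 and the semaphorin receptor Nrp1 at −0.80. The other higher genes, Robo3 and Sema7a, both lost the call without CTR KA replicate 4 (0.66, adjusted p = 0.14, and 0.59, adjusted p = 0.068) or KO KA replicate 1 (0.80, adjusted p = 0.088, and 0.68, adjusted p = 0.056), and each in further leave-outs. The 2 called members of 15 Bcl2 family genes were the death-promoting Bbc3 (0.92) and Hrk (0.84), both higher. Of 21 polysialic acid and immature neuron genes 3 were higher and 4 lower (median 0.01). Beside St8sia2 and Neurod2 on the higher side, the collapsin response proteins Dpysl5 (−1.50) and Dpysl3 (−1.04) were on the lower side. Of 13 prostaglandin and endocannabinoid genes Napepld was higher and Ptgs2 lower, and of 8 sorting and lipoprotein receptors only the reelin receptor Vldlr was called (−0.81).

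Housekeeping groups differed little. Of 60 respiratory chain genes and 50 cytosolic ribosomal protein genes 0 were called with limma or Tukey's test, with 9 and 3 at an unadjusted p under 0.05, with medians of 0.05 and 0.02 and ranges of −0.21 to 0.48 and −0.35 to 0.25. Of 37 proteasome genes 1 was lower, the activator Psme3 (−1.22, adjusted p = 7.1e-07), and the median was 0.02. Of 16 glycolysis genes Pfkl, a phosphofructokinase, was higher (1.10, adjusted p = 4.7e-06), while Gapdh (−0.18) and Aldoc (−0.19) were not called. With 1 gene higher and 1 lower, 12.5% of this list was called, beside 6.36% over all genes.

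**Figure D4:**
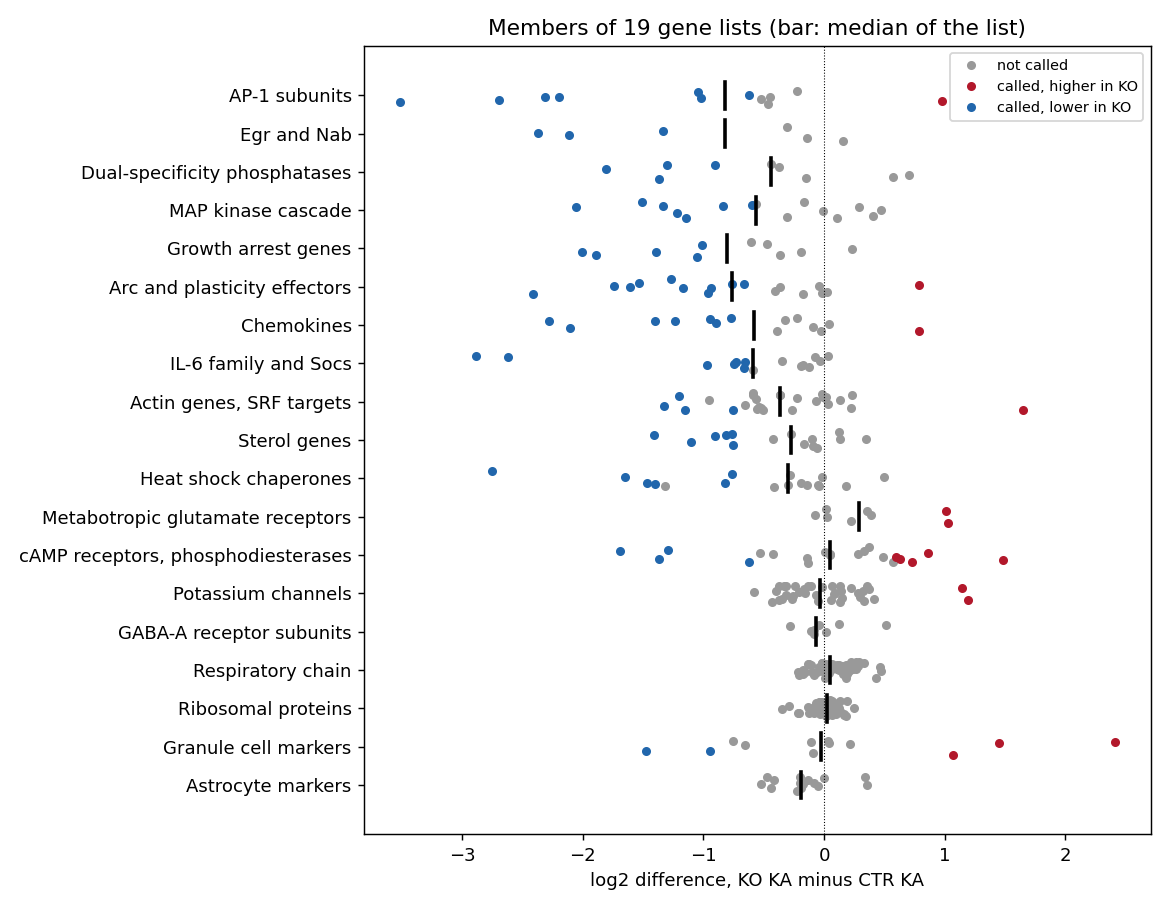
Log2 difference (KO KA minus CTR KA, horizontal axis) of the members of 19 gene lists, with 1 point for each gene with a probe and a black bar at the median of the list. The medians of the AP-1, Egr and growth arrest lists lie below −0.8, and no point of the respiratory chain or ribosomal lists was called.

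The markers of the dissected cells gave a mixed result. The granule cell markers Prox1 (12.76 in KO KA and 13.52 in CTR KA mice) and C1ql2 (14.87 and 13.80) were well above the low end, whereas Calb1 was read on a dim probe (mean 7.31). Of 12 granule cell markers 3 were higher, Dsp, Il16 (1.45, adjusted p = 4.6e-05) and C1ql2 (1.07), and 2 lower, Tdo2 (−1.47, adjusted p = 2.3e-05) and C1ql3 (−0.95). Their mean level ran between 10.16 and 10.40 in KO KA mice and between 9.92 and 10.47 in CTR KA mice. Astrocyte markers, of which 0 of 15 were called with limma or Tukey's test, 6 had an unadjusted p under 0.05 and 13 had a negative difference (median −0.19), ran between 12.47 and 12.63 in KO KA mice and between 12.61 and 12.88 in CTR KA mice, and their part in the lower astrocyte and cytokine genes was not tested. Microglia markers ran between 9.99 and 10.23 in KO KA and between 10.05 and 10.43 in CTR KA mice, and of 16 markers 2 were lower, Cd14 and the lysosomal Cd68 (−0.74), and 1 was higher, the purinergic receptor P2ry12 (0.67, adjusted p = 0.0094). Without CTR KA replicate 2 P2ry12 differed by 0.56, under the fold threshold, and 8 of the 16 differences were negative and 8 positive. Of the markers of oligodendrocytes (14), choroid plexus (11) and blood (10), 0 were called with limma or Tukey's test, with 1, 0 and 3 at an unadjusted p under 0.05. With limma 1 of 10 mossy cell, 2 of 13 pyramidal cell, 2 of 15 interneuron and 2 of 15 vessel markers were called, beside 6.36% over all genes. Leaving out 1 KA array at a time, the calls of the vessel marker Pecam1, the pyramidal Fibcd1 and the mossy cell Csf2rb2 were lost in 6, 3 and 1 of 10 fits.

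The genotype difference after KA differed from that after saline in a subset of these genes. The interaction was called (adjusted p under 0.01) at 609 probes with a negative and 357 with a positive value, and it uses the same KA arrays as the comparison above. For Npas4 the genotype difference was −3.79 after KA and −0.14 after saline (interaction −3.64, adjusted p = 8.0e-05), and for Rnd3 −2.95 and 0.09 (interaction −3.04, adjusted p = 4.4e-08). For Dsp it was 2.41 after KA and −0.53 after saline (interaction 2.94, adjusted p = 1.8e-07). Srf itself differed by −0.83 after KA and −1.04 after saline, and its interaction of 0.21 was not called (adjusted p = 0.57). Bdnf (interaction −0.81, adjusted p = 0.035) and Npy (0.85, adjusted p = 0.016) also missed the threshold.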

How the data were processed

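The study hybridized dentate gyrus RNA of 22 mice to Illumina MouseWG-6 v2.0 arrays. The authors subtracted background, applied quantile normalization in the BeadArray package and deposited log2 signals, which were used without further scaling. A second deposited file of signals before normalization was not used, because the column headings of 16 of its 22 columns disagree with the log2 table. Probe names came from the platform annotation, updated through accessions to RefSeq (898 symbols): 35784 of 46237 probes had 1 symbol and 10453 none. A gene was read on its brightest probe over all arrays. The 4 group means were fitted with limma 3.58.1 in R 4.3.3 (eBayes, 18 residual degrees of freedom). The members of the 62 gene lists and the comparison were chosen with earlier results of these data known. The result of 1 of these lists is not reported here. Genes were named by rule: Srf, the 15 largest differences in each direction among called genes whose groups do not overlap (clone and predicted names left out), and for each list up to 4 called members, called members of opposite sign and 2 bright uncalled members, with other probes where their call differed. The fit was also run on simulated data. These gave each probe the same spread in all groups, so unequal spread between KA and saline arrays was not checked.

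Alternatives covered other fits, scalings, filters, thresholds, the methods' Tukey test and leaving out each array. Further ones, without the 3 KA arrays of lowest weight and with the choroid plexus score as a covariate, were chosen after seeing the data.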

Additional observations from a re-analysis of the deposited data

Results flagged for a closer look

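Among the 294 named genes, 112 had a genotype difference after KA that differed from that after saline by the interaction test (limma, adjusted p under 0.01), 82 of them below 0 and 30 above. Many named genes were chosen for their difference in the same KA arrays, so a high share was built in. Over all 46237 probes the interaction was called at 609 below 0 and 357 above. Each value is the genotype difference after KA minus that after saline, in log2 units. Among transcription factors with a negative value they were −3.64 for Npas4, −3.47 for Fos, −2.42 for Fosb, −2.46 for Junb, −2.02 for Atf3, −2.69 for Sp7, −2.83 for Ybx3, −2.25 for Egr4, −2.12 for Egr2, −1.35 for Egr1, −2.28 for Nr4a2, −0.80 for Nr4a3, −1.10 for Klf6 and −1.16 for Srebf2. Among feedback regulators, kinases and growth arrest genes they were −1.80 for Dusp1, −1.44 for Dusp16, −1.05 for Dusp4, −0.87 for Dusp6, −1.77 for Errfi1, −1.26 for Hbegf, −2.03 for Map3k5, −1.53 for Mapkapk3, −1.28 for Map2k3, −1.36 for Rps6ka3, −2.04 for Cdkn1a, −1.92 for Gadd45g, −0.93 for Plk2, −1.35 for Sik1, −1.65 for Ier3 and −1.49 for Csrnp1. Cytokines, chemokines and their regulators had −2.81 for Il11, −2.74 for Socs3, −2.66 for Lcn2, −2.37 for Cd14, −0.81 for Cd68, −2.23 for Ccl4, −2.21 for Ccl3, −1.14 for Ccl7, −1.53 for Cxcl1, −1.20 for Nfkbiz, −2.03 for Zfp36, −1.23 for Zfp36l1 and −1.43 for Tdo2. Genes of the cytoskeleton and the matrix, and others, had −3.04 for Rnd3, −2.78 for Acan, −2.02 for Ccn1, −1.71 for Elmo1, −1.33 for Tpm4, −1.06 for Tpm3, −1.13 for Zyx, −1.01 for Pcdh10, −1.27 for Dpysl3 and −2.23 for Tmem114. Secreted neuronal factors, synaptic proteins and receptors had −2.15 for Gdnf, −2.14 for Adcyap1, −1.32 for Vgf, −0.94 for Cck, −1.47 for Cckbr, −1.16 for Arc, −1.80 for Syt4, −1.42 for Ptgs2, −1.18 for Ntrk2, −1.61 for Cacng3, −0.38 for Cacnb4, −1.54 for Igfbp3, −0.92 for Vegfa, −0.77 for Vldlr, −1.73 for Gpr3, −1.36 for Pde4b and −1.17 for Rcan1. Stress, sterol and other genes had −1.94 for Sdf2l1, −1.59 for Dnajb1, −1.44 for Bag3, −1.24 for Hmox1, −1.20 for Srxn1, −1.02 for Sesn2, −1.50 for Sqle, −0.98 for Cyp51, −1.22 for Psme3, −1.30 for Per1, −2.01 for Rrad and −1.45 for Rasl11a. The positive values were 2.74 for Marchf4, 2.58 for Cacna1h, 1.74 for Mas1, 1.74 for Slc7a4, 1.99 for Slc27a3, 1.74 for Rhbdl3, 1.49 for Acvr1c, 1.22 for Kcns2, 1.14 for Kcnip3, 1.16 for Grik4, 1.10 for Grm2, 1.21 for Syt13 and 1.19 for C1ql2 for membrane proteins, receptors and channels. For transcription factors, enzymes and other genes the positive values were 2.94 for Dsp, 2.93 for Trib2, 2.30 for Bcl11b, 2.15 for St8sia2, 1.93 for Napepld, 1.91 for Gse1, 1.78 for Rapgefl1, 1.78 for Fam210b, 1.75 for Il16, 1.74 for Neurod2, 1.73 for Creg2, 1.65 for Dclk3, 1.60 for Acta1, 1.58 for Galnt18, 1.37 for Ccn4, 1.17 for Pfkl and 1.12 for Arhgap20.

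In 37 of 588 groups of 5 KA arrays of a named gene (6.3%), 1 array stood apart from the others by Dixon's criterion, which chance meets in about 1 in 20 groups. Of these, 12 were KO KA replicate 3. KO KA replicate 3 was high for Il11 (10.06), Socs3 (11.92), Klf6 (11.73), Sdf2l1 (10.77), Pde4b (9.51), Adcy8 (10.70) and Gdnf (9.68) and low for Trib2 (13.16), Acta1 (10.36), Sort1 (14.25), Dclk3 (9.35) and P2ry12 (9.46). KO KA replicate 1 was low for Sesn2 (7.91), Atp5b (15.93) and Rpl41 (15.85). KO KA replicate 2 was high for Syt13 (11.65). KO KA replicate 4 was high for Ccn2 (14.16) and Kl (12.38) and low for Vgf (13.29). KO KA replicate 5 was high for Napepld (12.12), Tpm3 (11.66) and Laptm5 (13.52) and low for Il6st (9.40). CTR KA replicate 1 was low for Mt1 (15.94). CTR KA replicate 3 was high for Ier5l (11.34) and Elmo1 (15.28) and low for Rhbdl3 (8.95) and Map2k3 (12.43). CTR KA replicate 4 was high for Acvr1c (12.64), Calr (12.69) and Sesn2 (9.81) and low for Mgll (10.76). CTR KA replicate 5 was high for Bhlhe40 (14.06) and St8sia5 (11.44) and low for Btg1 (13.36), Trib1 (7.53) and Epha7 (11.68). The values are log2 signals.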

How the results depend on the processing

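None of the 176 called named genes changed the sign of its difference after KA under the alternatives that tested it. Leaving out 1 array at a time gave 1309 to 1560 lower and 675 to 940 higher probes. Other counts of lower and higher probes were 955 and 508 with only the 10 KA arrays in the fit, 2768 and 1844 without the fold threshold, 453 and 167 at 2-fold, 855 and 404 with limma's treat, 833 and 584 at 1 probe per gene (fewer probes tested), and 1013 and 515 with the methods' Tukey test after Benjamini-Hochberg. A further quantile normalization gave 1208 and 942 (43.8% higher, against 35.0%). After saline, where 1 probe was called, there were 4 with array weights, 3 with trend and robust eBayes or normexp, 2 with a further quantile normalization, with bright probes only or with 1 probe per gene, and 1 to 3 without 1 array. The interaction gave 974 negative and 602 positive probes with array weights, and 420 to 706 negative and 254 to 541 positive probes without 1 array, with 541 when CTR KA replicate 5 was left out. With a further quantile normalization it gave 466 negative and 491 positive probes, so the excess of negative ones was lost. Genes without overlap numbered 814 to 1041 lower and 681 to 1024 higher without 1 array, the highest of these (1024) without CTR KA replicate 5, while omitting KO KA replicate 5 gave 932. Leaving out an array can only keep or raise such a count, which with all arrays was 751 lower and 616 higher. In 2 alternatives chosen after seeing the data, the counts were 1623 and 839 without the 3 KA arrays of lowest weight, 1483 and 798 with the choroid plexus score as a covariate, and 2 after saline in both. Apart from the rise in genes without overlap, the cause of these shifts was not tested. Of the 176 called named genes, 155 kept the call without any 1 KA array, and 38 lost it with only the KA arrays. With the replicate block there were 1479 lower and 806 higher probes, 6 further named genes were called and 0 lost the call. The samples share only a number: the deviations of same-numbered KA arrays correlated between 0.007 and 0.345, and 4 of 5 KO KA arrays correlated best with their own number. Depth is not measured on arrays, and probes near the low end of the signal show no fold change reliably.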
